A study of Mus musculus with 8 samples.

Results

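Interferon-stimulated genes are the genes that a cell switches on after an interferon has bound its receptor. The group described here holds 33 such genes, listed by symbol, and the probes of each gene were found through their RefSeq accession. This matched 31 of the 33 genes to 40 probes, and all 31 were among the 15844 genes tested in the series. Mx1 and Mx2 were matched to no probe and are not analysed here. The probe used for each of the 31 genes was well above background on 8 of 8 arrays.

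Whole livers of 8 mice were measured, 1 array per mouse, in 4 groups of 2 mice: AKP::Keap1 females, AKP females, AKP::Keap1 males and AKP males. Mice of both genotypes express an activated oncogene and mutant p53 in the liver, so that every group carries the drivers of a bile duct cancer model. AKP::Keap1 mice in addition have a deletion of Keap1, the adaptor that marks the transcription factor Nrf2 for degradation. The series asks how Nrf2 activation by Keap1 loss acts on that cancer, and no liver free of both drivers is among its samples. Age and the promoter that drives expression in the liver are not given in the sources used here.

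Type I and type III interferons signal through Jak kinases to a transcription factor complex that includes Stat2 and Irf9 and binds the interferon-stimulated response element in the promoters of its targets. Type II interferon, made mostly by T and NK cells, acts at another promoter site and drives the guanylate-binding proteins and immunity-related GTPases in particular. The products sense viral RNA, degrade it, block its translation, hold virus particles at the membrane or attack vacuoles that contain pathogens. In liver, hepatocytes, biliary epithelium, endothelium and resident immune cells can all respond to interferon. Whole liver RNA therefore sums over many cell types, and fewer cells of a type and less RNA per cell cannot be told apart.

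Promoter sequence was at hand for 24 of the 33 genes, as the stretch from 250 bases before to 50 bases after each start in RefSeq, build GRCm38.p6. The core of the interferon-stimulated response element, spelled GAAA, any 2 bases and GAAA and searched on both strands, was found in 15 of the 24 genes (62.5%), against 3.99% of 27025 genes in the table. In 12 of the 15 genes a core began upstream of the start. The gamma-activated site, spelled TTCNNNGAA on both strands, was found in 6 of the 24 genes (25.0%), against 9.55% of all genes. Both motifs can overlap themselves and each other, and a match is a description of letters, not a binding site. Iigp1, Dhx58, Usp18, Oas2, Parp14, Rtp4, Zbp1, Mx1 and Mx2 were not in the table.

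The stretches below are shown because they belong to genes whose levels differ between the groups. Bst2 had the largest called genotype difference among the genes with a core, and the other 6 were higher in females and were chosen after their values were seen. Each is written 5′ to 3′ on the strand of its gene, with the response element cores in capitals. A core on the opposite strand reads TTTC, any 2 bases and TTTC. Bst2 lies at chr8:71537572-71537617 on the minus strand, Gbp2 at chr3:142620589-142620628 and Gbp3 at chr3:142559984-142560029 on the plus strand. Ifit1 lies at chr19:34640770-34640828 and Ifit3 at chr19:34583358-34583431 on the plus strand, Oas3 at chr5:120777710-120777749 and Rsad2 at chr12:26456548-26456587 on the minus strand.
Bst2: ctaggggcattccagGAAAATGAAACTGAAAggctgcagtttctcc
Gbp2: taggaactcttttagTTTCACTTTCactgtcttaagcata
Gbp3: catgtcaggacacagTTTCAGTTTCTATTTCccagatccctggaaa
Ifit1: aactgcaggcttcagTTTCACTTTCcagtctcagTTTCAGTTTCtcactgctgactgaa
Ifit3: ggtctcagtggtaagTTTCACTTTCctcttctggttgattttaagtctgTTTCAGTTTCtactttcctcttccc
Oas3: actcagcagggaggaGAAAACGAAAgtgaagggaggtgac
Rsad2: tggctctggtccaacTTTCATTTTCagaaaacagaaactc

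In Bst2 and Gbp3 a pair of overlapping cores formed 1 run, while in Ifit1 and Ifit3 the paired cores stood apart. Of the 8 genes called by sex, 6 were in the table and 6 of these held a core, and of the 23 not called 18 were in the table and 9 held one. Of the 6 genes called by genotype, 3 were in the table and Bst2 alone held a core.

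The share of spots well above background ran from 65.7% to 70.7% over the arrays, with 0 saturated spots. Levels are given on the log2 scale relative to the 75th percentile of the array, so that 0 is the level of that percentile, and the level of one probe cannot be set against that of another. Keap1 itself was lower in all 4 AKP::Keap1 mice, with a log2 difference of -2.85 ± 0.11 (SE, adjusted p = 0.000177, limma). Albumin, the leading hepatocyte marker, had levels of 8.07 to 9.07 over the 8 arrays, as fits the liver label. Each of the 4 groups had a slide of its own, and the slides of males had another scan day than those of females, so that slide, scan day and group cannot be told apart.

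**Figure D1:**
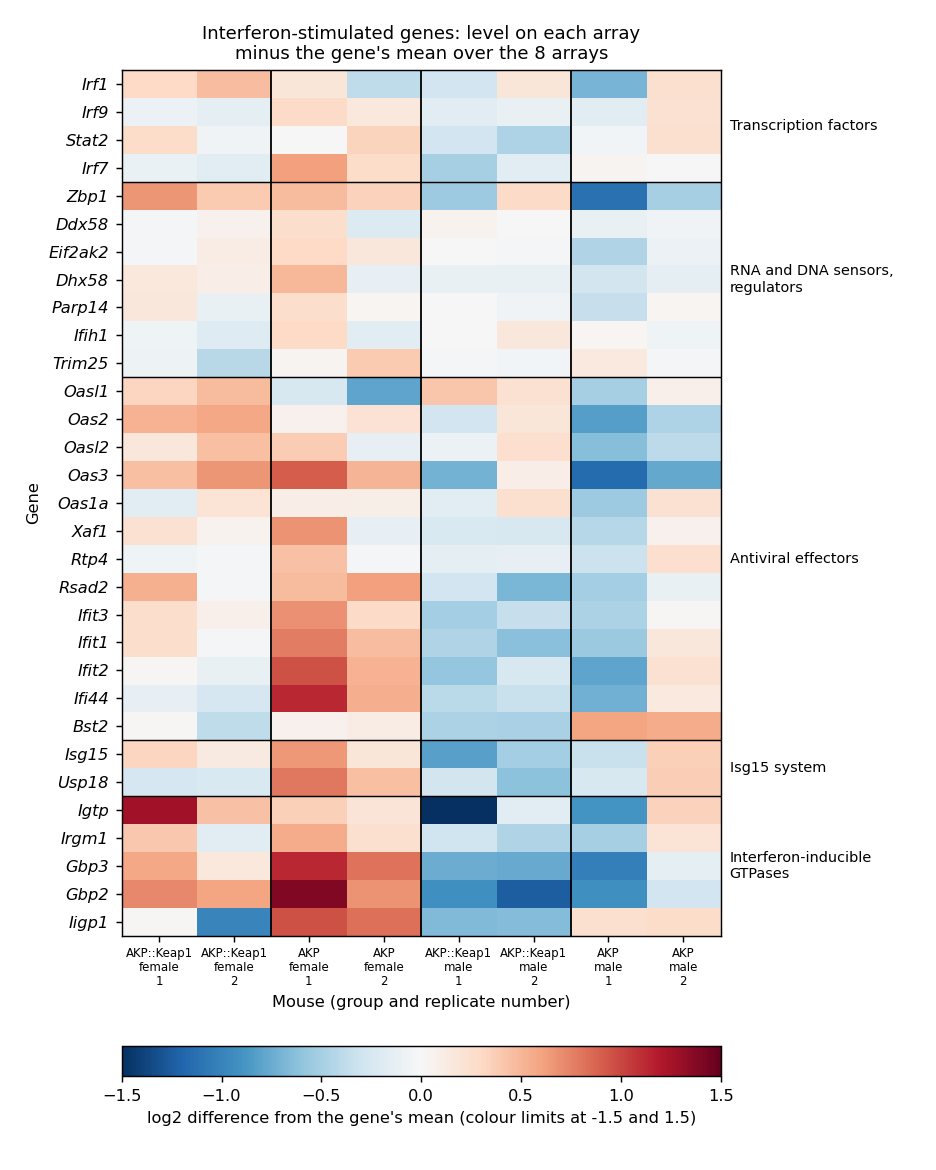
Heat map of the 31 interferon-stimulated genes (rows, grouped by role) on the 8 arrays (columns, named by group and replicate number), coloured by the log2 level minus the gene's mean over the 8 arrays. AKP female 1 is the highest array for 20 of the 31 genes and AKP male 1 the lowest for 16.

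Across the 4 groups the highest mean level was in AKP females for 23 of the 31 genes, in AKP::Keap1 females for 6, in AKP::Keap1 males for 1 and in AKP males for 1. Over all genes tested AKP females had the highest mean for 23.4%. The lowest mean was in AKP::Keap1 males for 18 genes and in AKP males for 10, against 22.9% and 28.5% of all genes. The extreme values fell mostly on 1 mouse in each AKP group, as the heat map shows. AKP female 1 was the highest array for 20 genes and AKP male 1 the lowest for 16, where these arrays held the highest value for 12.6% and the lowest for 14.9% of all genes. AKP male 2 was the lowest array for 0 genes and stood 0.07 above the genes' own means in the median, against -0.47 for AKP male 1.

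The first comparison asks how Keap1 loss changed these genes in livers that already carry both drivers. Averaged over the sexes, 6 of the 31 genes were called (19.4%), against 39.0% of all 15844 genes. Called means an adjusted p below 0.05 in limma, with the Benjamini-Hochberg method applied over all genes tested, and every adjusted p here is of that kind. The GTPase Iigp1, the virion tether Bst2, the Isg15 protease Usp18 and the transcription factor Irf7 fell, and the oligoadenylate synthetase family members Oasl1 and Oas2 rose. That is 6.45% of the genes higher and 12.9% lower, against 21.8% and 17.2% of all genes. The median log2 difference was -0.23 for the 31 genes and -0.00 for all genes, with 11 positive and 20 negative values. The 4 AKP::Keap1 arrays stood above all 4 AKP arrays for 1 gene (Oasl1) and below them for 4 (Iigp1, Bst2, Irf7 and Trim25), against 15.5% and 11.5% of all genes. Of the 25 genes not called, 22 had a 95% interval that stayed within a 2-fold change in both directions. Without AKP::Keap1 female 2 the count was 2 (Bst2 and Iigp1), without AKP male 1 it was 9 with 0 rises, with array median scaling it was 14 with 0 rises, with series matrix values it was 5 with 3 rises, and with the slide as a random block it was 1 (Iigp1). Each slide held 1 group, so that this block cannot separate slide from group.

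Markers of some cell types moved with genotype as well, where 21.8% of all genes rose and 17.2% fell. Of 7 biliary markers 7 rose, of 4 neutrophil markers 4, of 6 dendritic cell markers 5 and of 6 macrophage and monocyte markers 4, while 4 of 6 endothelial and 3 of 8 hepatocyte markers fell. Kupffer cell markers rose in 0 of 5 cases, NK cell markers in 1 of 7 and B cell markers in 1 of 4. T cell markers rose in 2 of 7 cases and general leukocyte markers in 2 of 5. These 5 lists had 0 falls. The summed level of a list, on a linear scale relative to the 75th percentile and so weighted to its brightest probes, was 29.1 to 30.8 for neutrophils in AKP::Keap1 females and 5.32 to 7.90 in AKP females, and 31.1 to 39.4 in AKP::Keap1 males and 4.43 to 5.78 in AKP males. For macrophages and monocytes it was 52.8 to 71.4 in AKP::Keap1 females and 49.8 to 51.4 in AKP females, and 28.3 to 36.2 in AKP::Keap1 males and 21.9 to 29.1 in AKP males. The macrophage and monocyte sum is made up mostly of Csf1r (0.26, adjusted p = 0.285) and Ly6c1 (0.07, adjusted p = 0.699). Neither is among the 4 markers of that list that rose. The sum of the hepatocyte list was 1214 to 1550 in AKP::Keap1 females and 1473 to 1607 in AKP females, and 1392 to 1414 in AKP::Keap1 males and 1854 to 2209 in AKP males. That of the endothelial list was 22.6 to 24.4 in AKP::Keap1 females and 28.3 to 29.2 in AKP females, and 21.7 to 22.5 in AKP::Keap1 males and 26.9 to 29.1 in AKP males. Endothelial sums did not overlap between the genotypes. The part of these cells in the falls and rises of the interferon-stimulated genes was not tested.

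**Figure D2:**
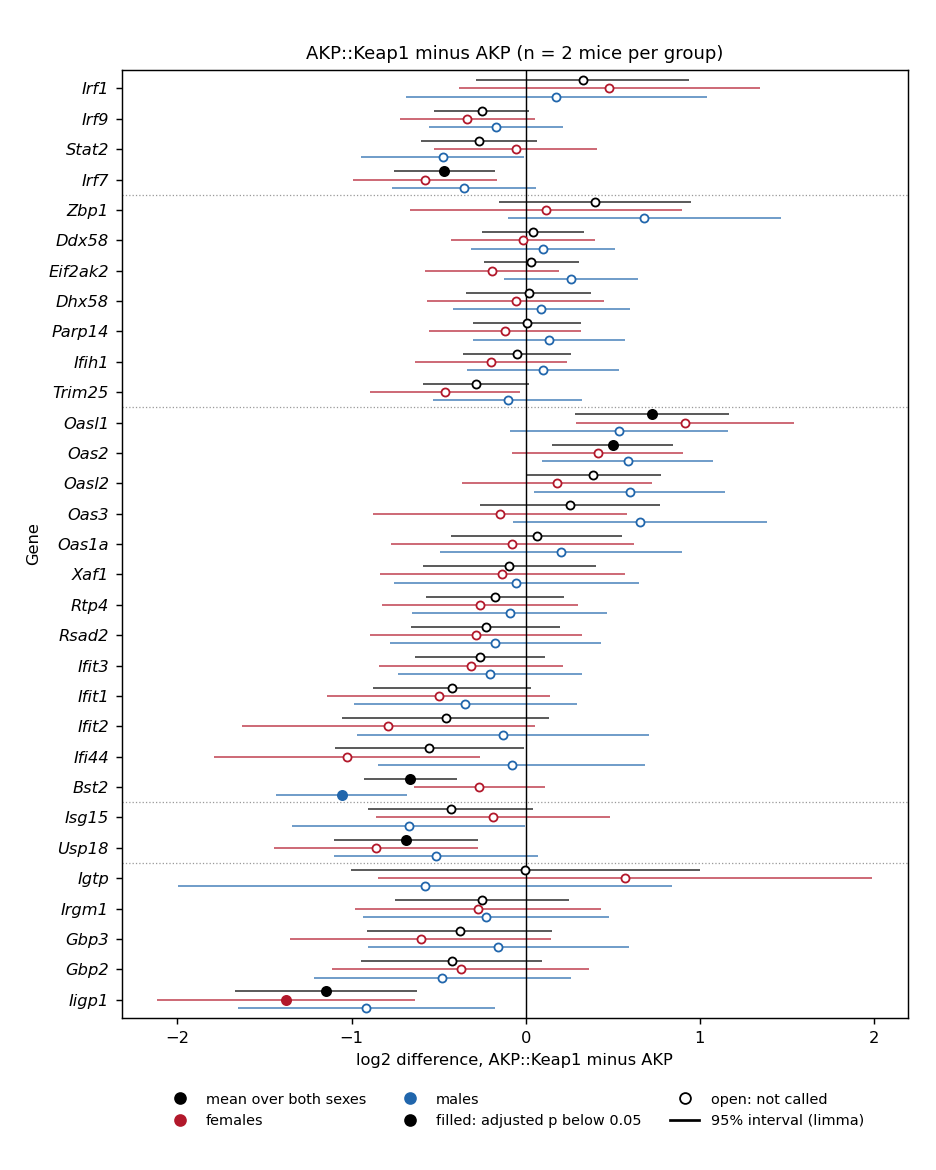
Log2 difference, AKP::Keap1 minus AKP, for each of the 31 genes with its 95% interval from limma, as the mean over both sexes (black), in females (red) and in males (blue), with filled points where the adjusted p was below 0.05. Filled black points mark 4 genes below 0 and 2 above 0, and the intervals of most others cross 0.

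Among the interferon-inducible GTPases, which act on vacuoles that hold pathogens, 0 of 5 rose, 1 fell and 4 were not called. Over all genes 21.8% rose and 17.2% fell. Iigp1, an effector of the immunity-related GTPase family, had levels of 2.94 and 1.94 in AKP::Keap1 females, against 3.88 and 3.75 in AKP females. In males it had 2.26 and 2.27 with AKP::Keap1, against 3.16 and 3.20 with AKP. All 4 AKP::Keap1 arrays were thus below all 4 AKP arrays, and AKP::Keap1 female 1 was the highest of the 4 AKP::Keap1 arrays. The log2 difference was -1.15 ± 0.22 (SE, n = 2 mice per group, adjusted p = 0.00915), a 2.21-fold fall, with -1.38 in females (adjusted p = 0.027) and -0.92 in males (adjusted p = 0.067). A second probe of Iigp1 gave -1.47 (adjusted p = 0.0034, for second probes over all 28450 kept probes). Iigp1 kept its call in each of the 20 alternative settings run.

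The other 4 GTPases had smaller differences, with 0 called by limma and 0 at an unadjusted p below 0.05. Gbp2, a guanylate-binding protein, had 0.97 and 0.85 in AKP::Keap1 females, against 1.65 and 0.93 in AKP females. Among males it had -0.67 and -0.98 with AKP::Keap1, against -0.66 and -0.03 with AKP. The AKP arrays of one sex spread as widely as the genotypes differ, and the log2 difference of -0.43 ± 0.22 was not called (adjusted p = 0.16). Gbp3 (-0.38, adjusted p = 0.207), the regulatory GTPase Irgm1 (-0.25, adjusted p = 0.364) and Igtp (-0.00, adjusted p = 0.996) were not called either. Igtp had the widest interval of the 31 genes, from -1.01 to 1.0 on the log2 scale, with levels of 2.66 and 4.03 in the 2 AKP::Keap1 males. A second, dimmer probe of Irgm1 was called (-0.73 ± 0.22, adjusted p = 0.0407).

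Isg15, a ubiquitin-like protein that is attached to other proteins, and Usp18, which removes it and also restrains the type I interferon receptor, both had negative differences. Usp18 had 1.38 and 1.40 in AKP::Keap1 females, against 2.42 and 2.08 in AKP females. In males it had 1.34 and 1.0 with AKP::Keap1, against 1.39 and 1.99 with AKP. The groups did not overlap within either sex, and the fall was -0.69 ± 0.17 (SE, adjusted p = 0.0228). Isg15 had 3.6 and 3.41 in AKP::Keap1 females, against 3.92 and 3.46 in AKP females, and 2.46 and 2.75 in AKP::Keap1 males, against 2.93 and 3.62 in AKP males. All 4 differences between same-sex means of Isg15 and Usp18 were below 0, but the -0.43 ± 0.20 of Isg15 was not called (adjusted p = 0.126).

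Among the 4 transcription factors, 0 rose, 1 fell and 3 were not called, where 21.8% of all genes rose and 17.2% fell. Irf7, which drives the interferon alpha genes and is itself induced by interferon, had 0.67 and 0.59 in AKP::Keap1 females, against 1.38 and 1.04 in AKP females. Among males it had 0.27 and 0.60 with AKP::Keap1, against 0.80 and 0.77 with AKP. Every AKP::Keap1 array was below every AKP array, with a difference of -0.47 ± 0.12 (SE, adjusted p = 0.0258), a 1.38-fold fall. Irf9 (-0.25, adjusted p = 0.121) and Stat2 (-0.27, adjusted p = 0.164), both members of the complex that answers type I interferon, and Irf1 (0.33, adjusted p = 0.332), a target of type II interferon, were not called.

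Among the 13 antiviral effectors, 2 rose, 1 fell and 10 were not called, where 21.8% of all genes rose and 17.2% fell. The 5 members of the oligoadenylate synthetase family, whose active enzymes sense RNA duplexes and switch on RNase L, had positive differences averaged over the sexes, from 0.06 to 0.73. In females 3 of the 5 were positive and 2 negative (Oas3 at -0.15 and Oas1a at -0.08), and in males 5 were positive. Relative to the array median, where the difference of all genes had a median of -0.25, Oas1a was at -0.18, and with normexp background correction Oas1a was at -0.023 and Oas3 at -0.19. The dimmer probe of Oas1a was at -0.0013. All 3 members of the Ifit family, which bind foreign RNA and block its translation, had negative differences, from -0.46 to -0.26, with 0 called by limma and 0 at an unadjusted p below 0.05. With unscaled series matrix values, where all genes had a median of 0.31, Ifit3 was at 0.050.

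Oasl1, which in mice is known to repress translation of the Irf7 messenger RNA, had 3.20 and 3.35 in AKP::Keap1 females, against 2.63 and 2.08 in AKP females. In males it had 3.29 and 3.1 with AKP::Keap1, against 2.37 and 2.94 with AKP. It was higher on every AKP::Keap1 array than on any AKP array, by 0.73 ± 0.18 (SE, adjusted p = 0.0238). Oas2 had 1.05 and 1.11 in AKP::Keap1 females, against 0.60 and 0.74 in AKP females, and 0.23 and 0.70 in AKP::Keap1 males, against -0.30 and 0.06 in AKP males. Within each sex its genotypes did not overlap, and it rose by 0.50 ± 0.14 (SE, adjusted p = 0.0361). Oasl2 (0.39, adjusted p = 0.0989), Oas3 (0.25, adjusted p = 0.371) and Oas1a (0.06, adjusted p = 0.826) were not called. Neither rise was called relative to the array median, where Oasl1 was at 0.48 (adjusted p = 0.0633) and Oas2 at 0.25 (adjusted p = 0.177).

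Bst2, or tetherin, which holds budding virus particles at the cell surface, fell with the smallest adjusted p of the group. It had 4.95 and 4.55 in AKP::Keap1 females, against 4.99 and 5.04 in AKP females. Among males it had 4.45 and 4.45 with AKP::Keap1, against 5.53 and 5.49 with AKP. The 2 males of each genotype were nearly equal, and every AKP::Keap1 array was below every AKP array. The difference was -0.66 ± 0.11 (SE, adjusted p = 0.00609) over both sexes, -1.06 ± 0.15 in males (adjusted p = 0.0082) and -0.27 ± 0.15 in females (adjusted p = 0.257).

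Bst2 is itself on the list of plasmacytoid dendritic cell markers. Of the 4 other tested genes of that list, Klk1 (-1.32) and Tcf4 (-0.46) fell, Ccr9 rose (0.33) and Siglech, the defining receptor, was not called (-0.10, adjusted p = 0.449). Without Bst2, a choice made after seeing the data as for Cd4 in T cells, the summed level of the list was 49.0 to 59.3 in AKP::Keap1 females and 51.0 to 56.1 in AKP females. It was 49.7 to 51.4 in AKP::Keap1 males and 58.4 to 59.7 in AKP males. This sum is made up mostly of Siglech, whose genotype difference in males was not called (-0.21, adjusted p = 0.275). The part of these cells in the fall of Bst2 was not tested.

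Ifi44, an interferon-induced antiviral protein, had 0.03 and -0.10 in AKP::Keap1 females, against 1.29 and 0.70 in AKP females. In males it had -0.25 and -0.18 with AKP::Keap1, against -0.56 and 0.29 with AKP. The separation lay in females, where the difference was -1.03 ± 0.32 (adjusted p = 0.0652), and the mean over the sexes of -0.55 ± 0.22 was not called (adjusted p = 0.0945). Ifit2 had -2.85 and -2.97 in AKP::Keap1 females, against -1.91 and -2.34 in AKP females, and -3.44 and -3.11 in AKP::Keap1 males, against -3.66 and -2.63 in AKP males. Ifit1 had -0.16 and -0.44 in AKP::Keap1 females, against 0.35 and 0.05 in AKP females, and -0.86 and -1.04 in AKP::Keap1 males, against -0.97 and -0.24 in AKP males. In both Ifit genes the AKP::Keap1 males lay within or close to the range of the AKP males, and the differences of -0.46 ± 0.25 and -0.42 ± 0.19 were not called (adjusted p = 0.179 and 0.118). Ifit3 (-0.26, adjusted p = 0.219), viperin or Rsad2 (-0.23, adjusted p = 0.332), Rtp4 (-0.18, adjusted p = 0.415) and Xaf1 (-0.09, adjusted p = 0.739) were not called.

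None of the 7 sensors and regulators of RNA handling was called by limma between the genotypes, against 39.0% of all genes. Of the 7, 0 had an unadjusted p below 0.05, with differences from -0.28 to 0.40 and a median of 0.02. These are the RNA sensors Ddx58 (also Rigi), Ifih1 and Dhx58, the nucleic acid sensor Zbp1, the RNA-activated kinase Eif2ak2, the ubiquitin ligase Trim25 and the ADP-ribosyltransferase Parp14. Zbp1 had 1.79 and 1.52 in AKP::Keap1 females, against 1.60 and 1.47 in AKP females, and 0.59 and 1.41 in AKP::Keap1 males, against 0.00 and 0.63 in AKP males. The AKP::Keap1 males overlapped with the AKP males, and the difference of 0.40 ± 0.23 was not called (adjusted p = 0.205). The intervals of Ddx58 (-0.25 to 0.34), Dhx58 (-0.34 to 0.38), Parp14 (-0.30 to 0.32) and Eif2ak2 (-0.24 to 0.31) held 0 near their middle.

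Several of the 31 genes had more than 1 usable probe, and for some the answer depended on the probe. Of the 8 genes with several kept probes, Ddx58, Oas1a and Xaf1 had probes of opposite sign between the genotypes. The RNA sensor Ifih1 differed most. Its brighter probe gave -0.05 ± 0.13 (adjusted p = 0.785), while its dimmer probe gave -0.76 ± 0.12 (adjusted p = 0.005). The dimmer probe read -4.03 and -4.30 in AKP::Keap1 females, against -2.52 and -2.70 in AKP females, and -4.14 and -4.01 in AKP::Keap1 males, against -4.24 and -3.98 in AKP males. On that probe AKP females alone stood apart, by more than 1 log2 unit. Oas, Ifit, Gbp and immunity-related GTPase genes have close paralogs, and cross-hybridisation leaves their single values uncertain.

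The genotype difference was also fitted within each sex. In females 1 of the 31 genes was called (3.23%, Iigp1, lower), against 21.4% of all genes, 12.3% higher and 9.09% lower, and the median was -0.20, against 0.05 for all genes. In males 1 was called (3.23%, Bst2, lower), against 28.2% of all genes, 16.7% higher and 11.4% lower, and the median was -0.10, against -0.03 for all genes. In females 25 of the 31 differences were negative, and in males 19. The arrays of the genotypes did not overlap for 4 genes higher and 13 lower in AKP::Keap1 females, against 36.6% and 28.5% of all genes, and for 7 higher and 8 lower in AKP::Keap1 males, against 34.8% and 38.2%.

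The difference between the sexes in this response was tested as an interaction, the female genotype difference minus the male one. By limma it called 0 of the 31 genes, against 1.71% of all genes, 0.410% higher and 1.30% lower, and 1 gene had an unadjusted p below 0.05. That gene was Bst2, with an interaction of 0.79 ± 0.22 (SE, adjusted p = 0.111), and it was called in this test relative to the array median. By size the other leading values were Igtp (1.15, adjusted p = 0.447), Ifi44 (-0.95, adjusted p = 0.263) and Oas3 (-0.81, adjusted p = 0.311). Intervals stayed within 2-fold for 12 of the 31 genes, and for the other 19 they reached beyond it.

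The second comparison sets females against males. Averaged over the genotypes, 8 of the 31 genes were called and all 8 were higher in females (25.8%), against 21.1% of all genes called, 10.9% higher and 10.3% lower. They are the guanylate-binding proteins Gbp2 and Gbp3, the oligoadenylate synthetases Oas2 and Oas3, the RNA-binding Ifit1 and Ifit3, viperin Rsad2 and the sensor Zbp1. The median log2 difference, female minus male, was 0.40 for the 31 genes and -0.01 for all genes, with 27 positive and 4 negative values. All 4 females stood above all 4 males for 6 genes and below them for 0, against 6.0% and 6.94% of all genes.

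**Figure D3:**
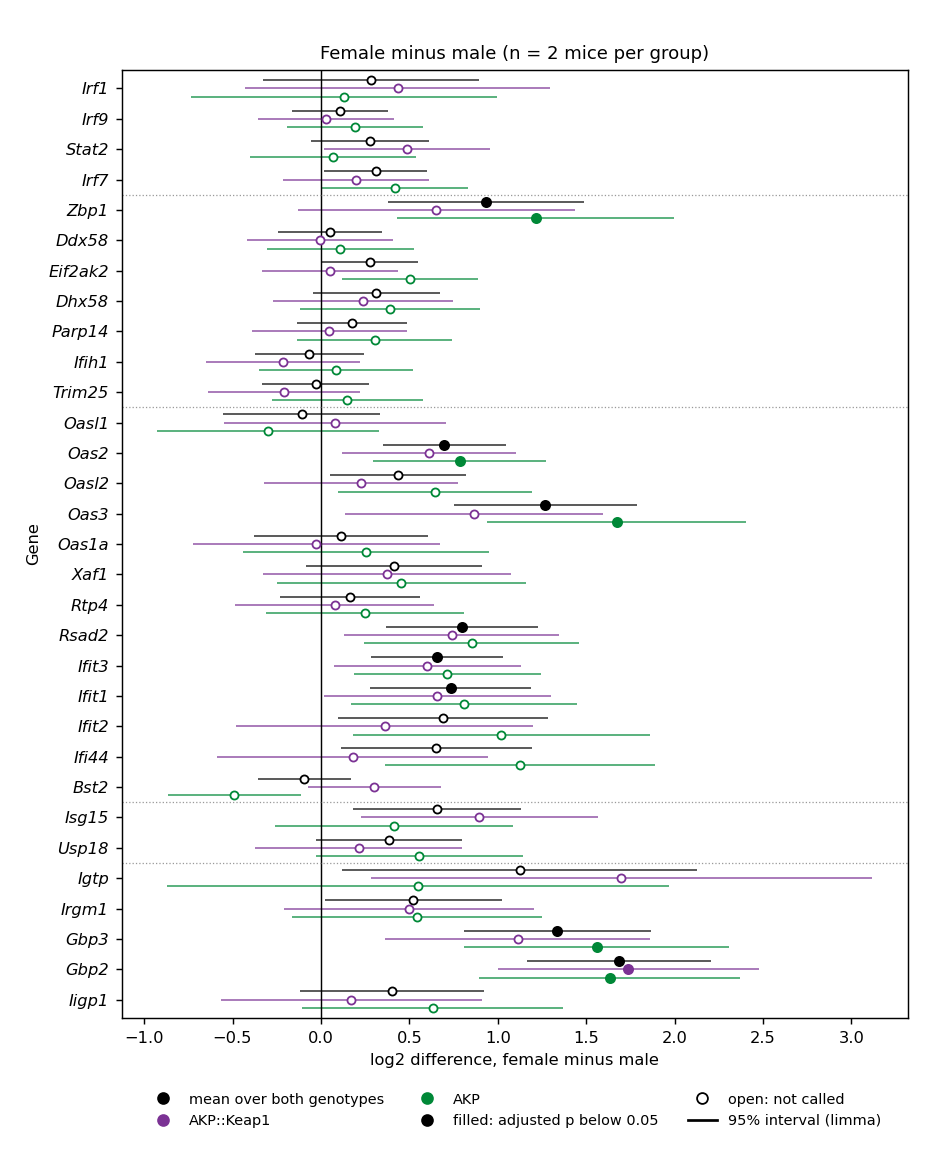
Log2 difference, female minus male, for each of the 31 genes with its 95% interval from limma, as the mean over both genotypes (black), in AKP::Keap1 (purple) and in AKP (green), with filled points where the adjusted p was below 0.05. The 8 filled black points all lie above 0, and Gbp2 is filled in all 3 fits.

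Gbp2 differed most between the sexes. Its levels were 0.97 and 0.85 in AKP::Keap1 females, against -0.67 and -0.98 in AKP::Keap1 males. In AKP mice they were 1.65 and 0.93 in females, against -0.66 and -0.03 in males. Females were higher by 1.69 ± 0.22 (SE, adjusted p = 0.00795), a 3.22-fold difference, with 1.74 in AKP::Keap1 (adjusted p = 0.0379) and 1.63 in AKP (adjusted p = 0.0205). The sex call of Gbp2 held in each of the 20 alternative settings run. Gbp3 had 2.30 and 1.88 in AKP::Keap1 females, against 0.98 and 0.97 in AKP::Keap1 males, and 2.85 and 2.53 in AKP females, against 0.69 and 1.57 in AKP males. It too was higher in every female than in any male, by 1.34 ± 0.22 (SE, adjusted p = 0.0141).

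Among the other GTPases Igtp (1.12, adjusted p = 0.0987), Irgm1 (0.52, adjusted p = 0.116) and Iigp1 (0.40, adjusted p = 0.218) were not called. Oas3 had -4.03 and -3.82 in AKP::Keap1 females, against -5.20 and -4.39 in AKP::Keap1 males, and -3.58 and -3.98 in AKP females, against -5.65 and -5.26 in AKP males. Females were higher by 1.27 ± 0.21 (SE, adjusted p = 0.0153) with no overlap of the sexes. The Oas3 probe was dim, with intensities of 19.4 to 90.3 before scaling. Its sex difference ran from 0.51 to 1.47 over the 20 alternative settings. Oas2 was higher by 0.70 ± 0.14 (SE, adjusted p = 0.0241), so that AKP::Keap1 females had the highest and AKP males the lowest mean level of this gene. Oasl1, which rose with Keap1 loss, had a sex difference of -0.11 ± 0.18 (adjusted p = 0.693).

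Rsad2, an enzyme that makes a nucleotide which ends viral RNA chains, had 0.29 and -0.26 in AKP::Keap1 females, against -0.53 and -0.93 in AKP::Keap1 males. In AKP mice it had 0.23 and 0.37 in females, against -0.76 and -0.35 in males. It was higher in every female than in any male, by 0.80 ± 0.18 (SE, adjusted p = 0.0293). Ifit3 had 2.12 and 1.94 in AKP::Keap1 females, against 1.34 and 1.51 in AKP::Keap1 males, and 2.54 and 2.15 in AKP females, against 1.39 and 1.88 in AKP males. Its difference of 0.66 ± 0.15 (SE, adjusted p = 0.0333) also came without overlap of the sexes. Zbp1 (0.93 ± 0.23, adjusted p = 0.0365) and Ifit1 (0.73 ± 0.19, adjusted p = 0.0405) were called too, and in Ifit1 AKP male 2 overlapped with the AKP::Keap1 females.

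**Figure D4:**
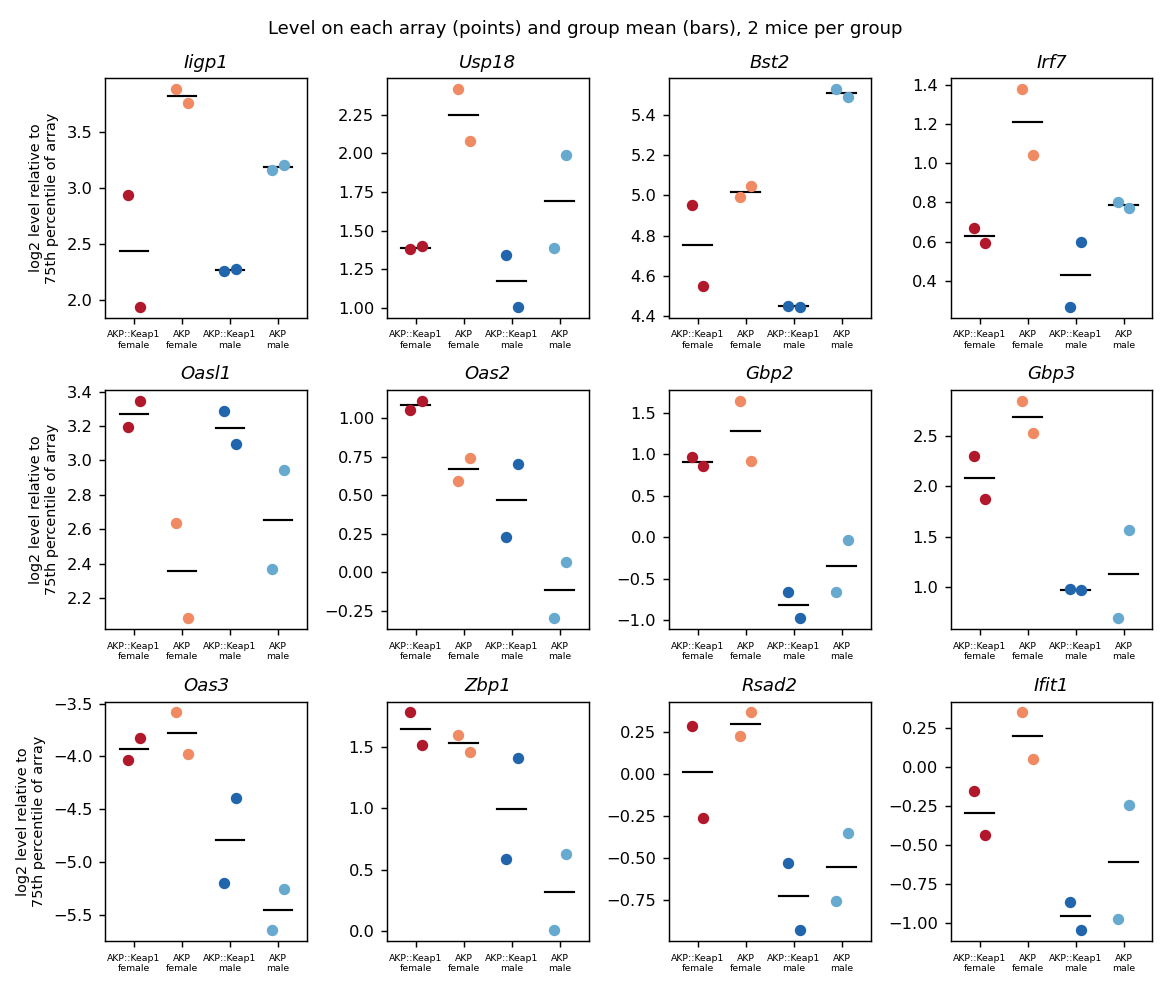
Log2 level relative to the array's 75th percentile (vertical axis) on each array (points) and group mean (bars) for 12 genes called by genotype or by sex, in AKP::Keap1 females, AKP females, AKP::Keap1 males and AKP males, 2 mice per group. Iigp1, Bst2 and Irf7 are lower on every AKP::Keap1 array, and Gbp2, Gbp3 and Oas3 are higher in every female.

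The 4 transcription factors all had positive sex differences, from 0.11 for Irf9 to 0.31 for Irf7, with 0 called by limma and 1 (Irf7) at an unadjusted p below 0.05. Isg15 (0.65, adjusted p = 0.0603) and Usp18 (0.39, adjusted p = 0.15) were not called, although a second probe of Isg15 was (0.82, adjusted p = 0.0398). Bst2 (-0.09), Oasl1 (-0.11), Ifih1 (-0.07) and Trim25 (-0.03) were the 4 genes with negative values. Bst2 ran in opposite directions in the genotypes. Its AKP::Keap1 females were above the AKP::Keap1 males (0.30, adjusted p = 0.316), and its AKP females were below the AKP males (-0.49, adjusted p = 0.0713).

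Within AKP::Keap1 mice 1 of the 31 genes was called by sex (3.23%, Gbp2, higher), against 3.80% of all genes, 1.18% higher and 2.62% lower. Within AKP mice 5 were called (16.1%), against 19.4% of all genes, 9.66% higher and 9.73% lower, and all 5 were higher in females, namely Gbp2, Gbp3, Oas2, Oas3 and Zbp1. The sexes did not overlap for 20 genes higher and 2 lower in AKP::Keap1 females, against 29.1% and 25.9% of all genes, and for 18 higher and 1 lower in AKP females, against 32.2% and 34.1%. Without AKP female 1 the count over both genotypes was 1 (Gbp2), and without AKP male 1 it was 2 (Gbp2 and Gbp3). With the slide as a random block, which cannot separate slide from group, it was 1 (Gbp2).

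Markers of some immune cells moved with the sex difference, where 10.9% of all genes were higher in females and 10.3% lower. Dendritic cell markers rose in females in 1 of 6 cases, those of macrophages and monocytes in 1 of 6 and those of neutrophils in 0 of 4. These 3 lists had 0 falls. Plasmacytoid dendritic cell markers had 1 rise and 1 fall among 5. Of 5 general leukocyte markers all 5 rose in females, among them the leukocyte phosphatase Ptprc (1.38 ± 0.17, adjusted p = 0.00744). Of 4 B cell markers 4 rose, of 7 NK cell markers 6, of 7 T cell markers 3 and of 5 Kupffer cell markers 2. Of their defining genes, those reported here were well above background on 8 of 8 arrays for the T cell gene Cd3d and the Kupffer cell gene Clec4f and on 4 of 8 for the NK cell receptor Ncr1. The summed level of the leukocyte list was 15.3 to 19.0 in AKP::Keap1 females and 9.76 to 10.4 in AKP::Keap1 males. It was 9.11 to 10.8 in AKP females and 4.56 to 5.86 in AKP males. These sums did not overlap between the sexes within a genotype, and AKP::Keap1 males lay within the range of AKP females.

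The summed levels of the NK, Kupffer, B and T cell lists were as follows. The NK cell list had 1.51 to 2.03 in AKP::Keap1 females and 0.81 to 1.09 in AKP::Keap1 males, and 1.5 to 1.72 in AKP females and 1.0 to 1.22 in AKP males. The Kupffer cell list had 114 to 168 in AKP::Keap1 females and 47.0 to 83.0 in AKP::Keap1 males, and 111 to 145 in AKP females and 66.0 to 99.1 in AKP males. The B cell list had 2.06 to 2.36 in AKP::Keap1 females and 0.85 to 1.62 in AKP::Keap1 males, and 2.05 to 2.35 in AKP females and 0.61 to 0.81 in AKP males. The sum of the T cell list is made up mostly of Cd4 (-0.38, adjusted p = 0.348), and without it the list had 2.11 to 2.68 in AKP::Keap1 females and 2.46 to 2.52 in AKP::Keap1 males, and 1.77 to 1.94 in AKP females and 1.39 to 1.41 in AKP males. Cd3e had the highest level of the remaining genes on every array, so that the sum without Cd4 is weighted to Cd3e. Of the single T cell markers Cd3d (1.16), Cd8b1 (0.76) and Cd2 (1.17) rose in females, Cd3g (0.99, adjusted p = 0.0507) and Cd8a (0.91, adjusted p = 0.0909) were not called, and Cd3e was at -0.45 (adjusted p = 0.0694). The part of any of these cells in the sex difference was not tested.

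Other parts of the pathway were read from lists of their own. By genotype, 3 of 6 tested interferon genes rose and 0 fell (list median 0.53, against -0.00 for all genes, of which 21.8% rose), namely Ifnl3 (0.54, adjusted p = 0.0125), Ifna2 (0.71, adjusted p = 0.033) and Ifna1 (0.52, adjusted p = 0.0386). The list held 12 genes, of which 10 were matched to probes. Both Ifna probes were dim, with levels of -6.61 to -5.02 for Ifna2 and -4.73 to -3.81 for Ifna1. Ifna2 was well above background on 7 of 8 arrays, and its lowest level was in AKP male 2. Of 11 receptor and signalling genes 1 rose and 1 fell (18.2% called, against 39.0% of all genes, list median 0.06). Ifnlr1, the receptor subunit for type III interferon and known for its expression in epithelium, had -3.38 and -1.73 in AKP::Keap1 females, against -4.93 and -6.15 in AKP females. Among males it had -2.11 and -2.11 with AKP::Keap1, against -5.43 and -5.72 with AKP. In AKP mice this probe was as dim as the Ifna probes, though it was well above background on 8 of 8 arrays. Ifnlr1 rose by 3.22 ± 0.42 (SE, adjusted p = 0.00321) without overlap of the genotypes, while the type I receptor subunit Ifnar2 fell by 0.26 (adjusted p = 0.048). Beside this rise, 7 of 7 markers of biliary epithelium rose, with a summed level of 36.8 to 80.1 in AKP::Keap1 females against 3.12 to 8.49 in AKP females, and 71.5 to 84.5 in AKP::Keap1 males against 6.77 to 8.71 in AKP males. Their part in the rise of Ifnlr1 was not tested.

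Of 16 adaptors and kinases of nucleic acid sensing 4 rose (25.0%) and 5 fell (31.2%) by genotype (list median 0.06), against 21.8% and 17.2% of all genes. The DNA sensor Cgas (0.70, adjusted p = 0.00279) and its adaptor Sting1 (1.14, adjusted p = 0.00349) rose with the RNA receptor Tlr7 (0.42, adjusted p = 0.0303). The kinase Tbk1 (-0.92, adjusted p = 0.00321), the mitochondrial adaptor Mavs (-0.67, adjusted p = 0.00425) and Irf5 (-0.60, adjusted p = 0.00638) fell. Of 34 further interferon-stimulated genes 1 rose, Tor3a (0.68), and 5 fell, led by Ifi27 (-0.62), Gbp7 (-0.93) and Dtx3l (-0.52), with a list median of -0.13, and 17.6% called in all, against 39.0% of all genes. Of 8 brakes on the pathway 0 were called by limma (list median 0.06), 1 had an unadjusted p below 0.05 (the phosphatase Ptpn2, -0.33, adjusted p = 0.0551), and next was Pias1 (-0.26, adjusted p = 0.103).

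In antigen presentation, a set of interferon targets of another kind, 5 of 17 genes rose and 2 fell by genotype (list median 0.02). That is 41.2% called, near the 39.0% of all genes, so that the count itself does not set the list apart. The rises were in the class II branch, with H2-Eb1 (1.54, adjusted p = 0.00217), H2-Ab1 (1.46, adjusted p = 0.00255) and their regulator Ciita (0.84, adjusted p = 0.0045), and the falls in the class I chains H2-K1 (-0.38, adjusted p = 0.0149) and H2-D1 (-0.42, adjusted p = 0.015). Markers of dendritic cells, which carry class II, rose in 5 of 6 cases. The summed level of that list was 1.69 to 2.54 in AKP::Keap1 females against 1.0 to 1.17 in AKP females, and 1.59 to 1.92 in AKP::Keap1 males against 0.59 to 0.78 in AKP males. Markers of macrophages and monocytes rose in 4 of 6 cases and those of B cells in 1 of 4. The part of any of these cells in the class II rises was not tested.

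By sex, 0 of 6 interferon genes were called by limma and 1 had an unadjusted p below 0.05 (list median 0.22, against -0.01 for all genes). That gene was Ifnl3 (0.36, adjusted p = 0.067), and next was Ifna11 (-0.48, adjusted p = 0.156). Ifng, the type II interferon, had -2.92 and -4.77 in AKP::Keap1 females, against -4.92 and -4.40 in AKP::Keap1 males, and -3.26 and -3.87 in AKP females, against -5.95 and -3.81 in AKP males. Females and males overlapped in both genotypes, and its difference of 1.07 ± 0.59 was not called (adjusted p = 0.234). Of 3 interferon-induced chemokines, which attract T and NK cells, 3 rose in females (list median 1.04), namely Cxcl10 (1.02, adjusted p = 0.017), Ccl5 (1.04, adjusted p = 0.0307) and Cxcl9 (1.48, adjusted p = 0.0462). By genotype 0 of these 3 were called by limma (list median -0.28), and 0 had an unadjusted p below 0.05. Of the 34 further interferon-stimulated genes 7 rose and 0 fell in females (20.6%, list median 0.34), against 10.9% and 10.3% of all genes, led by Sp100 (0.64, adjusted p = 0.00799), Gbp7 (1.51, adjusted p = 0.0139) and Gbp6 (2.01, adjusted p = 0.0229). In the remaining lists the shares called by sex were near the 21.1% of all genes. There were 2 rises and 0 falls among 11 receptors and signalling genes (18.2% called). Sensing adaptors had 3 rises and 1 fall among 16 genes (25.0% called). Among 8 brakes (25.0% called) Samhd1 rose (0.56, adjusted p = 0.031) and Irf2 fell (-1.07, adjusted p = 0.00395). In antigen presentation 3 of 17 genes rose, namely Ciita (1.16, adjusted p = 0.00526), Tapbp (0.60, adjusted p = 0.0168) and Cd74 (0.90, adjusted p = 0.0356), and 0 fell, a share of 17.6% against 21.1% of all genes.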

How the data were processed

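RNA of whole liver was measured on 1-colour Agilent arrays. The deposited values are linear intensity, 1 per spot, from which Feature Extraction 10.7.3.1 had subtracted background per the file headers, with probe annotation on mm9, while the submitters' processing notes name version 10.1. Control and outlier spots were left out, spots of a probe were averaged, and 26055 of 39429 probes were named through RefSeq accessions of GRCm38.p6, so that array coordinates are not used. Values are log2 intensity minus each array's 75th percentile. Probes well above background on at least 2 arrays were kept, and the brightest stood for its gene. All genes were fitted with limma 3.58.1 in R 4.3.3, 1 mean per group, two-sided, with Benjamini-Hochberg adjustment over 15844 genes. Adjusted p-values of second probes run over 28450 probes. The model was first run on simulated data with known changes. With 2 mice per group, p-values measure the spread between these mice, and the number of arrays limits precision. The members and lists were chosen with earlier results of these data known. Values per array are given for the 12 members with the largest genotype differences and, by choice after seeing values, for members called by sex. Of each other list up to 3 rises and 3 falls with the smallest adjusted p are named, or up to 2 genes where none was called, with further genes chosen after seeing values. Alternatives covered scaling, background, filters, probe choice, variance model, blocks and left-out arrays. Single values of a few genes are not reported here.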

Additional observations from a re-analysis of the deposited data

Results flagged for a closer look

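The dimmer probe of the RNA sensor Ifih1 had a genotype difference that was not the same in females and males. On this probe the female genotype difference minus the male one was -1.59 ± 0.24 (SE, adjusted p = 0.0399, limma), with -1.55 in females and 0.03 in males. The brighter probe of Ifih1 had -0.30 ± 0.26 in the same test (adjusted p = 0.514). On the dimmer probe AKP females alone stood apart, and they had a slide of their own. A slide effect and a sex difference in the response therefore cannot be told apart here.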

How the results depend on the processing

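Of the members called by genotype, 0 of 6 changed direction under the 20 alternatives, and of those called by sex 0 of 8 did. Most of these members lost their call in some settings. By genotype that was 8 of the 20 settings for Irf7 and Oas2, 7 for Oasl1, 6 for Usp18 and 1 for Bst2. By sex it was 11 for Ifit1, 9 for Ifit3, 8 for Oas2 and Zbp1, 7 for Rsad2 and 3 for Gbp3 and Oas3. Scaling to the array median moved the median genotype difference of all genes by -0.25 and unscaled series matrix values by 0.31, so that directions of members near 0 depend on scaling. Slide and group cannot be told apart, and 2 mice per group and the number of arrays limit precision; all members were above background.

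Members called by genotype numbered 14 (0 rises) with array median scaling and 1 with the slide as a random block, which could be fitted only for genotype and sex over both strata. With series matrix values 5 were called, 3 of them rises, and the median of all 31 was 0.080; with normexp 9 were called, 2 of them rises. In males 7 were called with array median scaling, 5 with series matrix values, 3 with trended robust variances and 2 with the percentile of detected probes, normexp, the replicate block or the 2 groups alone, and the median was -0.47 with array median scaling and 0.40 with series matrix values. In females 4 were called with array median scaling, the mean of probes or the dimmest probe, 5 with normexp, the filter on all 8 arrays or trended robust variances, 2 with quantile normalization and 0 with the 2 groups alone. The interaction called 1 with array median scaling (Bst2) and 1 with the dimmest probe (Ifih1), and its median was -0.56 with series matrix values. By sex 3 were called with series matrix values and 1 with the slide block. Within AKP::Keap1 0 were called with series matrix values, where the median was -0.085, and 0 with the replicate block. Within AKP 3 were called with quantile normalization, series matrix values or no filter, 8 with normexp, the filter on all 8 arrays or the dimmest probe, 9 with the percentile of detected probes or trended robust variances, and 1 with the 2 groups alone.

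With 1 array left out, the genotype count ran from 2 to 9 and its median from -0.32 to -0.08; in females the count ran from 0 to 4 and the median from -0.37 to -0.07, and in males from 0 to 2 and from -0.37 to 0.13. The interaction count stayed at 0 to 0, with medians from -0.36 to 0.01. By sex the count ran from 1 to 11 and the median from 0.31 to 0.52, within AKP from 0 to 6 and from 0.26 to 0.70, and within AKP::Keap1 from 0 to 1 and from 0.22 to 0.42. The genotype count was 3 without AKP::Keap1 male 2, AKP female 1 or AKP::Keap1 female 1. The sex count was 11 without AKP male 2, 3 without AKP::Keap1 female 1, 4 without either AKP::Keap1 male and 5 without AKP female 2 or AKP::Keap1 female 2. The male call of Bst2 was lost without AKP::Keap1 male 2 (adjusted p = 0.0517), and the female call of Iigp1 without either AKP::Keap1 male or either AKP female. The female count was 4 without either AKP male, and the male count was 2 without either AKP::Keap1 female. By sex within AKP it was 0 without AKP female 1 or AKP male 1 and 1 without AKP female 2 (Gbp2). By sex within AKP::Keap1 it was 0 without any 1 of the 4 AKP::Keap1 mice.

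Among the 25 members not called by genotype, 16 changed direction somewhere, none of them called there (lowest adjusted p = 0.0655). With series matrix values these were Ifit3 (0.050), Rsad2 (0.080), Irf9 (0.058), Stat2 (0.042), Ifih1 (0.26), Igtp (0.31), Irgm1 (0.060), Xaf1 (0.22), Rtp4 (0.13) and Trim25 (0.026). With array median scaling they were Oas1a (-0.18), Ddx58 (-0.20), Dhx58 (-0.23), Parp14 (-0.24) and Eif2ak2 (-0.21), and with normexp Oas1a (-0.023), Oas3 (-0.19) and Eif2ak2 (-0.051). With the dimmest probe they were Oas1a (-0.0013), Ddx58 (-0.0085) and Xaf1 (0.63), and with the mean of probes Xaf1 (0.27). With quantile normalization they were Ifih1 (0.025), Igtp (0.062) and Eif2ak2 (-0.017), and with the percentile of detected probes Ifih1 (0.019) and Igtp (0.065). With 1 array left out Oas1a ran from -0.13 to 0.26, Ifih1 from -0.17 to 0.066, Ddx58 from -0.072 to 0.16, Dhx58 from -0.14 to 0.17, Igtp from -0.34 to 0.34, Xaf1 from -0.29 to 0.11, Parp14 from -0.085 to 0.10 and Eif2ak2 from -0.060 to 0.13.

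The labels name no pairing of mice by replicate number. Deviations of same-numbered mice correlated at -0.156 to 0.123, which shows no strong shared effect but cannot exclude a pairing. With the replicate block 6 members were called by genotype and 6 by sex. Normexp on the mean signal was not run because the files used here lack that column, and the median signal was used instead, a choice made after seeing the data.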
